A study of Homo sapiens with 12 samples.

Results

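The genome encodes collagens as single chains, each from its own gene, and 43 of the 58735 gene symbols in the count files were collagen chain genes. They were chosen by the form of the name: COL, a number, the letter A and a number, with no hyphen. Earlier results of these data were known when this was done. COL17A1 has a name of this form but was left out, so it enters no class count or sum below. By the type of collagen that the chain is known to build, 11 were fibrillar, 6 were basement membrane type IV, 3 were short-chain network formers (types VIII and X) and 5 were type VI. A further 10 belonged to the fibril-associated types (FACIT), 3 to the transmembrane types and 2 to the multiplexins. COL7A1 of the anchoring fibrils stood alone, and COL26A1 and COL28A1 were placed in no class.

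Collagen chains wind around each other in trimers, and the type of the chains decides the structure that results. Fibrillar collagens make the cables of connective tissue, type IV makes the sheet-like network of basement membranes, and type VI makes beaded filaments around cells. FACIT chains coat fibrils, multiplexins carry sugar chains and sit at basement membranes, and transmembrane collagens stay in the plasma membrane. In breast tumours most fibrillar collagen is laid down by stromal fibroblasts, while epithelial cells contribute basement membrane chains. The new chains are hydroxylated, glycosylated and folded in the endoplasmic reticulum, trimmed outside the cell, crosslinked, and bound by integrins and discoidin domain receptors.

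Polyadenylated RNA was sequenced from MDA-MB-468, an established human triple-negative breast cancer line that the labels give as wild type, in 4 groups of 3 libraries lettered A, B and C. The groups were DMSO (the vehicle), docetaxel at 10 nM for 8 h, docetaxel at 10 nM for 24 h, and tazemetostat at 5 µM with ipatasertib at 5 µM for 24 h, called the combination here. Docetaxel is a taxane that freezes microtubules, tazemetostat inhibits the histone methyltransferase EZH2, and ipatasertib inhibits the kinase AKT. Docetaxel cultures grew in 10 cm plates. Cells of the combination had a 5 day lead-in with tazemetostat or vehicle, and both inhibitors were then given in 6 cm plates and 2% serum. The labels give no hours, plate or serum for the DMSO libraries and no arm for either inhibitor alone. Culture format and drug therefore cannot be told apart, nor can the inhibitors, nor time in culture and docetaxel between 8 h and 24 h. Nothing says that the letters stand for separate cultures, so a p-value here reflects how far these libraries scatter, and that scatter may be purely technical.

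The type IV genes lie in head-to-head pairs, and members of a pair moved together in some cases and apart in others. On GRCh38, the build of the files, the starts of COL4A4 and COL4A3 on chromosome 2 lie 112 bases apart and those of COL4A6 and COL4A5 on the X chromosome lie 347 apart, per GENCODE release 29. The bases between the starts of the first pair are shown here with the 250 bases next to COL4A5 from the second, where those nearest COL4A6 are not shown, beside the promoters of COL6A2 and COL5A3, chosen as low genes with large rises in the combination. The pair of COL4A1 and COL4A2 on chromosome 13 is not shown. In GENCODE release 29 COL4A2 starts at 110305812, inside COL4A1, which starts at 110307233, so no bases lie between those starts. Every sequence shown comes from RefSeq windows on GRCh38.p14, holds only bases upstream of the annotated starts and reads 5′ to 3′. Capitals mark CCAAT, the GC box GGGCGG and TATAAA, each searched on both strands, with no matches that overlap.
COL4A4 and COL4A3 (chr2:227164454-227164564, plus strand): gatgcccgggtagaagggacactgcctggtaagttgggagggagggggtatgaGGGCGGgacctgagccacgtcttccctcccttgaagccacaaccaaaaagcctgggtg
COL4A6 and COL4A5 (chrX:108439588-108439837, plus strand): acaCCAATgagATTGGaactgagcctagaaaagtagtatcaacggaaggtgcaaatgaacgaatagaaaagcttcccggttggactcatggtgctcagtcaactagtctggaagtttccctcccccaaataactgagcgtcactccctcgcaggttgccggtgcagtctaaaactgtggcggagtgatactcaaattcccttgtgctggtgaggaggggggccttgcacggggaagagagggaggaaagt
COL6A2 (chr21:46097862-46098096, plus strand): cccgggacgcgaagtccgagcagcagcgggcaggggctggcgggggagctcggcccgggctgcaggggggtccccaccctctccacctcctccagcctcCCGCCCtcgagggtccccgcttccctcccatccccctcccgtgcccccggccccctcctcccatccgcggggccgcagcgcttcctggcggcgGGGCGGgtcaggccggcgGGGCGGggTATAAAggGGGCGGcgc
COL5A3 (chr19:10010505-10010754, minus strand): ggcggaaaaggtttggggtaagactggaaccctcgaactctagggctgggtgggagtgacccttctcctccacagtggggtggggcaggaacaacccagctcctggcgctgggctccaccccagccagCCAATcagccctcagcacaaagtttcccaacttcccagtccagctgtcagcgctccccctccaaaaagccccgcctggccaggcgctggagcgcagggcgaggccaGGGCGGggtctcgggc
The region between COL4A4 and COL4A3 held 1 GC box, and the 250 bases shown next to COL4A5 held 2 CCAAT matches facing each other, with the bases nearest COL4A6 not counted. COL6A2 held 4 GC boxes and 1 TATAAA, and COL5A3 held 1 CCAAT and 1 GC box. A match is a run of letters and no evidence of binding. RefSeq promoter windows, from 250 bases before to 50 after a start, were matched for 31 of the 43 genes, with 43 windows in all because some genes had more than 1. Of these windows 51.2% were CpG-rich (GC of at least 50% and observed over expected CpG of at least 0.6), beside 46.9% of all 35116 windows. A GC box was present in 24 of the windows (55.8%, beside 45% of all windows), CCAAT in 13 (30.2%, beside 34.6%) and TATAAA in 7 (16.3%, beside 11.5%). The overlapping windows of COL4A1 and COL4A2 on chromosome 13 were among the richest, with 76.67% and 77.67% GC and 45 CpG sites in each. A window of COL18A1 had 86.67% GC and 46 CpG sites. COL4A5 had 49.33% GC and 8 CpG sites, and the windows of COL4A6 had 43.67% and 50% GC with 7 and 5 CpG sites. The makeup of the windows was not tested against the fold changes.

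Total counts per library ranged from 29820617 to 45807059. Levels are given as CPM, normalised counts scaled to a library total of 1e+06, in the order of libraries A, B and C. The share of counts from the mitochondrial genome was 4.0 to 4.48% in DMSO, 8.20 to 9.0% at 8 h of docetaxel, 5.00 to 7.53% at 24 h and 7.71 to 9.30% in the combined treatment, and its part in the results was not tested. EZH2 mRNA averaged 111 CPM in DMSO, 124 at 8 h, 96.3 at 24 h and 67.4 in the combination, which is a level of RNA and not a measure of inhibition.

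In DMSO the highest levels belonged to chains of basement membranes and of fibril surfaces. COL18A1, a multiplexin whose end is released as endostatin, had the highest level per transcript length, at 9.41 CPM per kb. It was followed by the FACIT chains COL9A2 (5.90 CPM per kb) and COL12A1 (4.6) and by type IV COL4A5 (4.38). COL1A1, a chain of type I collagen, reached 3.20 CPM per kb, but its partner chain COL1A2 had no count in any DMSO library. COL3A1, the chain of type III collagen that accompanies type I in stroma, had 2 counts over the 3 DMSO libraries together. COL26A1 stood at 3.10 CPM per kb, COL5A1 at 1.81, COL13A1 at 1.43 and COL16A1 at 1.18, and every other member was under 1 CPM per kb. Of the 43 genes, 25 averaged under 1 CPM in DMSO, 8 of them with no count there at all. COL6A5 had no count in any of the 12 libraries.

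**Figure D1:**
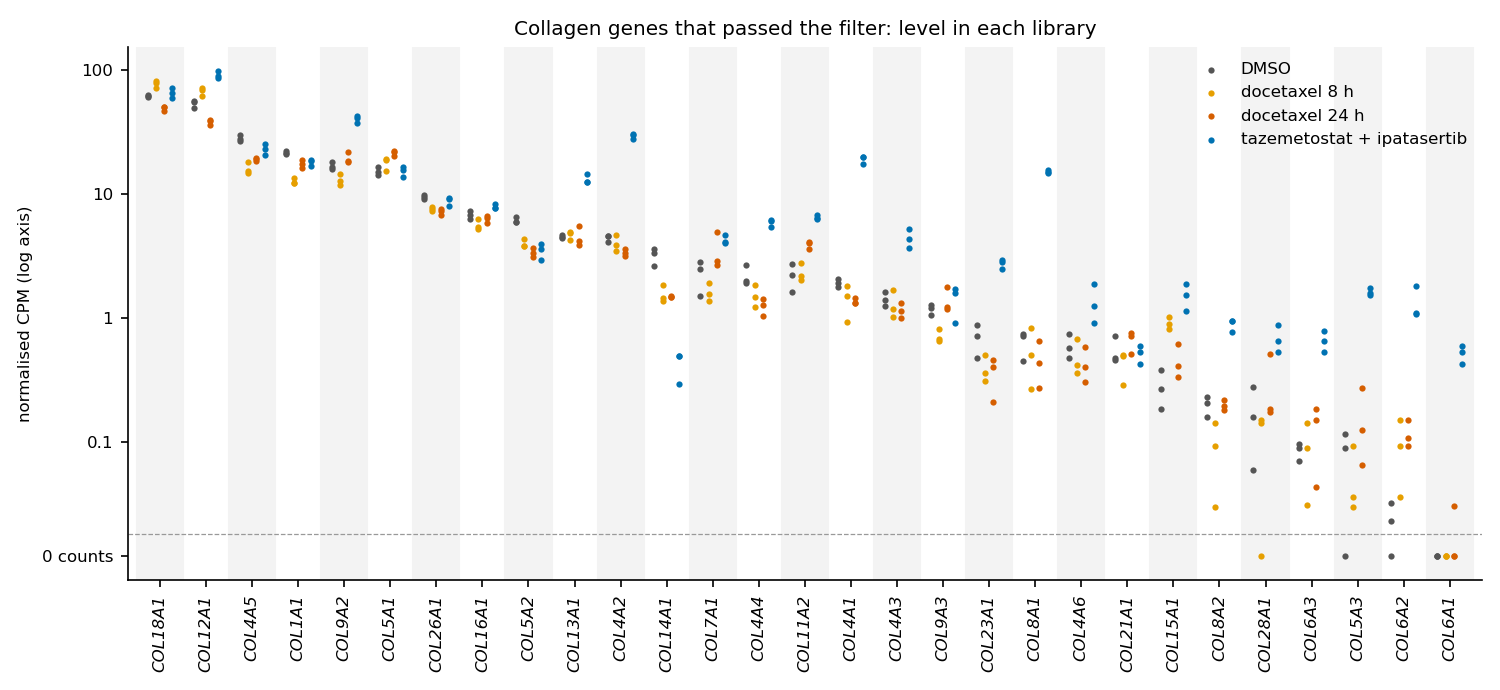
Level of each of the 29 collagen genes that passed the filter on low counts, in normalised CPM on a log axis, with a point per library and colours for the 4 groups; points on the lowest line are libraries with 0 counts. COL8A1 is seen to go from 0.444 to 0.739 CPM in DMSO to 14.8 to 15.5 in the combination, and COL14A1 from 2.60 to 3.62 down to 0.291 to 0.495.

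The combination was compared with DMSO, a contrast in which drug and culture format cannot be told apart. COL4A1, COL4A2, COL4A3, COL4A4 and COL4A6 of basement membranes and the network former COL8A1 rose, by log2 fold changes of 1.17 to 4.55, and the FACIT chain COL14A1 fell by 2.89. A log2 fold change of 1 is a 2-fold difference, and a gene was said to rise or fall where the edgeR quasi-likelihood test gave an adjusted p (Benjamini-Hochberg over all 17780 genes tested) under 0.05. Of the 29 collagen genes with enough counts to be tested, 19 rose and 4 fell, beside 31.4% of all tested genes that rose and 31.4% that fell. These counts need splitting, because 6 of the 29 (COL5A3, COL6A1, COL6A2, COL6A3, COL8A2 and COL28A1) reached the filter only through the combination libraries, where they were high. Among the 23 that passed the filter without those libraries, 13 rose and 4 fell, while 28.9% of the 16831 genes that passed in the same way rose and 33.1% fell. The median log2 fold change of the 23 was 0.88, beside -0.02 for those 16831 genes. In RNA from whole cultures, fewer cells expressing a gene and less RNA per cell cannot be told apart.

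**Figure D2:**
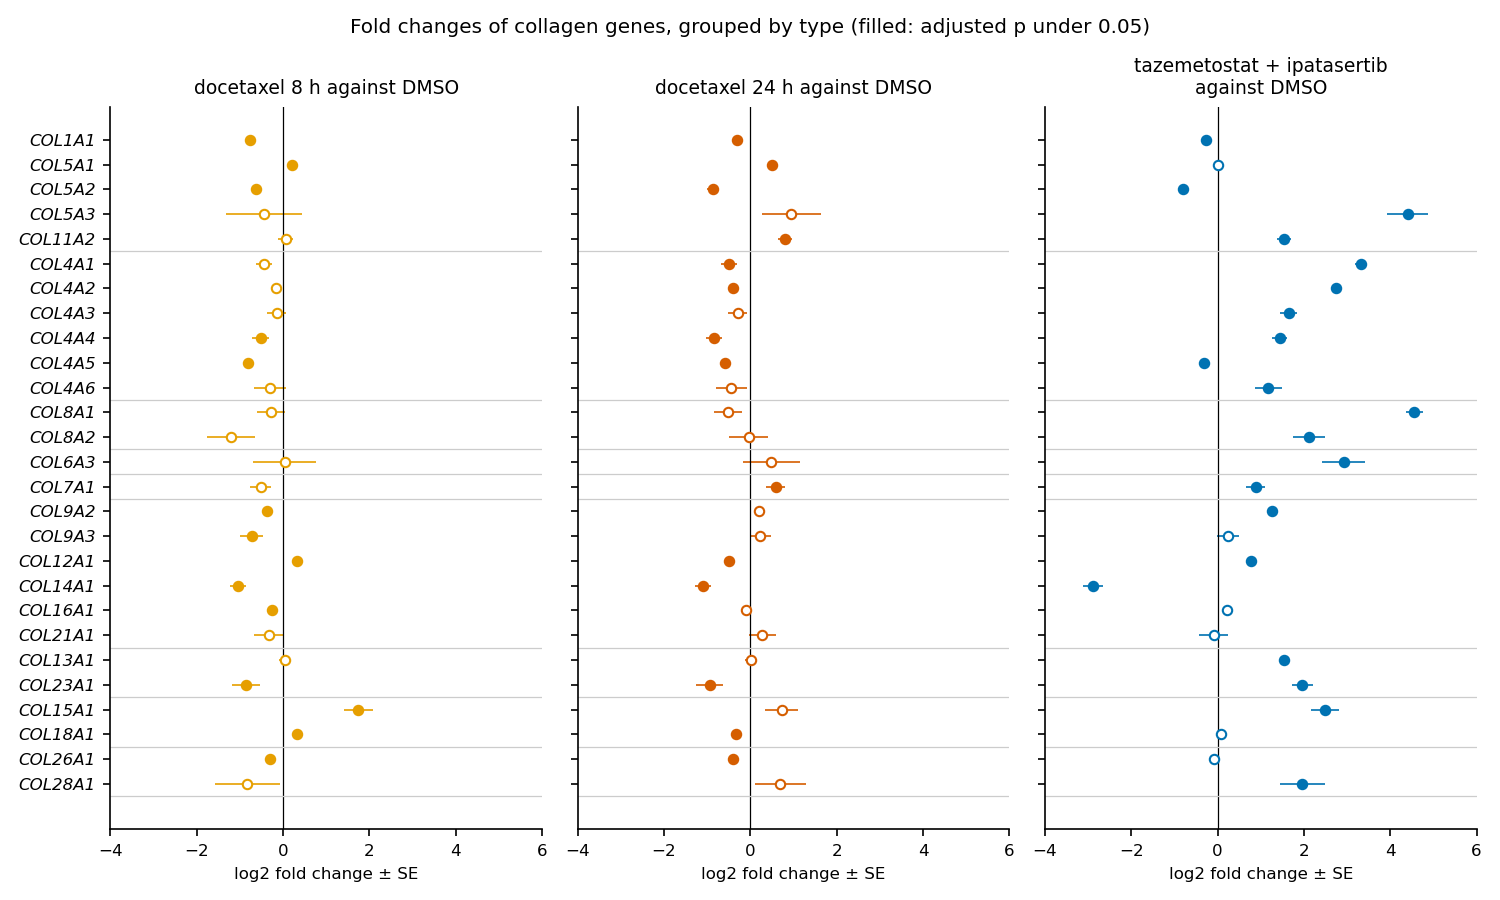
Log2 fold change against DMSO, with its standard error, of 27 tested collagen genes in 8 h docetaxel, 24 h docetaxel and the combination, with rows grouped by collagen type and filled circles for an adjusted p under 0.05. COL6A1 and COL6A2 are left out because they had 0 and 2 counts in DMSO; the combination panel is the widest, from -2.89 for COL14A1 to 4.55 for COL8A1.

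All 6 type IV genes gave a call in the combination: 5 rose and COL4A5 fell. COL4A1 (chromosome 13, 110148963 to 110307233, minus strand) was at 1.77, 2.06 and 1.92 CPM in DMSO, at 0.918, 1.82 and 1.5 at 8 h of docetaxel, at 1.32, 1.45 and 1.31 at 24 h and at 17.6, 19.9 and 19.9 in the combination. COL4A2 (110305812 to 110513209, plus strand), whose chain joins that of COL4A1 in the network of nearly all basement membranes, was at 4.61, 4.57 and 4.11, then 3.44, 4.63 and 3.85, then 3.19, 3.33 and 3.57, and at 30.7, 27.6 and 30.2 in the combination. The combination libraries of both genes stood far above all 9 others. COL4A1 rose by 3.32 ± 0.14 on the log2 scale (SE, n = 3 against 3, edgeR adjusted p = 2.53e-15) and COL4A2 by 2.73 ± 0.10 (adjusted p = 1.36e-16).

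The pair on chromosome 2 moved together as well. COL4A3 had 1.24, 1.40 and 1.63 CPM in DMSO, 1.18, 1.02 and 1.68 at 8 h, 0.992, 1.32 and 1.14 at 24 h, with 3.68, 5.25 and 4.35 in the combination. COL4A4 had 1.98, 2.70 and 1.92 in DMSO, 1.48, 1.85 and 1.21 at 8 h, 1.26, 1.42 and 1.03 at 24 h, with 6.10, 5.41 and 6.21 in the combination. Both genes, whose chains join that of COL4A5 in the network of the kidney filter and the lung, were higher in every combination library than in any other. The rise was 1.64 ± 0.19 for COL4A3 (edgeR adjusted p = 8.17e-08) and 1.43 ± 0.16 for COL4A4 (adjusted p = 7.06e-08).

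The pair on the X chromosome moved apart. COL4A5 had 27.1, 28.1 and 30.1 CPM in DMSO, 15.2, 18.3 and 14.8 at 8 h, 19.2, 19.6 and 18.4 at 24 h, with 20.7, 22.9 and 25.2 in the combination. COL4A6 had 0.576, 0.476 and 0.739 in DMSO, 0.415, 0.680 and 0.357 at 8 h, 0.301, 0.401 and 0.581 at 24 h, with 1.89, 0.907 and 1.24 in the combination. COL4A5 was thus highest in DMSO and COL4A6 highest in the combination, with no overlap between those groups for either gene. COL4A5 fell by 0.31 ± 0.08 (edgeR adjusted p = 0.00175) and COL4A6 rose by 1.17 ± 0.32 (adjusted p = 0.00261).

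Per transcript length, the makeup of the type IV pool turned over. COL4A5 made up 75.1 ± 1.32% of the summed type IV level in DMSO (mean ± SD, n = 3), 67.3 ± 2.08% at 8 h, 73.6 ± 1.32% at 24 h and 28.7 ± 1.76% in the combination. COL4A1 and COL4A2 together made up 16.7 ± 1.27%, 22.3 ± 2.12%, 18.1 ± 0.864% and 60.4 ± 1.36% in the same order. The shares of COL4A3 with COL4A4 stayed between 6.65 and 9.23% on average and that of COL4A6 between 1.51 and 1.91%. No test was run on these shares, which are sums over genes, but the combination libraries lay outside the range of all others for COL4A5 and for the COL4A1 pair.

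**Figure D3:**
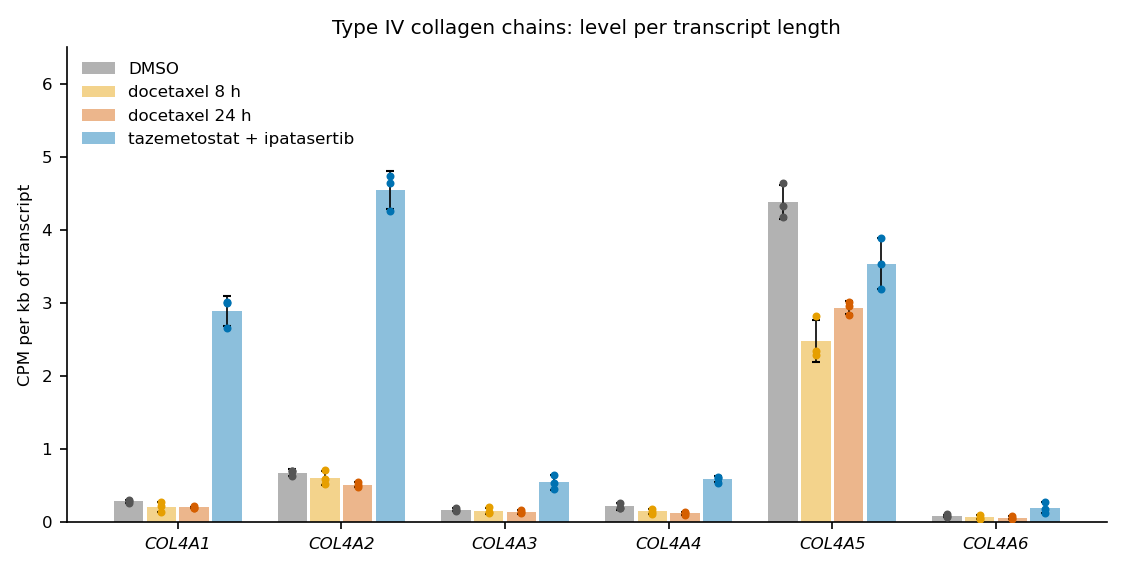
Level of the 6 type IV chains in CPM per kb of transcript, with bars for the mean of 3 libraries, error bars for the SD and points for libraries. COL4A5 has the tallest bars in DMSO and in both docetaxel groups (4.38 CPM per kb in DMSO), while COL4A2 (4.55) is the tallest in the combination.

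Type VIII chains, which form a hexagonal lattice beneath vascular and corneal endothelium, rose with them. COL8A1 was at 0.714, 0.444 and 0.739 CPM in DMSO, 0.267, 0.834 and 0.499 at 8 h, 0.271, 0.647 and 0.431 at 24 h, with 15.1, 15.5 and 14.8 in the combination. Its rise of 4.55 ± 0.20 (edgeR adjusted p = 6.45e-15) was the largest fitted to any collagen gene that passed the filter without the combination libraries. COL8A2 had 0.230, 0.159 and 0.207 CPM in DMSO, 0.0296, 0.0927 and 0.143 at 8 h, 0.180, 0.216 and 0.194 at 24 h, with 0.774, 0.939 and 0.948 in the combination. It rose by 2.12 ± 0.36 (adjusted p = 2.27e-05) from a level that was low throughout, and it reached the filter only through the combination libraries. The third short-chain gene, COL10A1 of hypertrophic cartilage, was not tested: it had 4 counts over the DMSO libraries, 13 at 8 h, 17 at 24 h and 2 in the combination.

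Type VI chains were nearly silent outside the combination. COL6A1 had no count in DMSO or at 8 h, 0.0301, 0 and 0 CPM at 24 h, with 0.526, 0.421 and 0.589 in the combination, or 48 counts against 0. Against a floor of 3 counts over the DMSO group this was at least 18.6-fold higher in the combination (edgeR adjusted p = 3.63e-06). COL6A2, whose promoter held 4 GC boxes, had 0.0230, 0.0317 and 0 CPM in DMSO, 0.148, 0.0927 and 0.0357 at 8 h, 0.150, 0.0924 and 0.108 at 24 h, with 1.08, 1.10 and 1.80 in the combination. The 124 counts of the combination against 2 in DMSO gave a ratio of 71.9, with a 95% counting interval of 19.5 to 601 that covers counting error only (adjusted p = 4.62e-09). The 3 chains make up the common type VI trimer. COL6A3 rose as well, from 0.0691, 0.0952 and 0.0886 CPM in DMSO to 0.526, 0.648 and 0.785 in the combination, by 2.92 ± 0.50 (adjusted p = 2.27e-05), with 0.0309 to 0.185 in the 6 docetaxel libraries. All 3 passed the filter only through the combination, and their levels there were still low. COL6A6 was not tested, with 1, 2, 3 and 5 counts in DMSO, 8 h, 24 h and the combination.

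Fibrillar chains did not move as a group. COL1A1 was at 20.9, 21.5 and 22.3 CPM in DMSO, 12.2, 13.4 and 12.2 at 8 h, 18.9, 17.3 and 16.3 at 24 h, with 16.8, 18.4 and 18.9 in the combination. It was lower in every treated library than in any DMSO library, and in the combination it fell by 0.26 ± 0.07 (edgeR adjusted p = 0.00354). COL5A1, which nucleates fibrils, was at 14.3, 15.1 and 16.5 CPM in DMSO, 15.5, 18.7 and 19.3 at 8 h, 21.9, 20.4 and 22.4 at 24 h, with 13.8, 15.8 and 16.7 in the combination. The combination overlapped DMSO for this gene, with a log2 fold change of 0.01 ± 0.09 (adjusted p = 0.924). Its partner COL5A2 averaged 6.13 CPM in DMSO and 3.51 in the combination and fell by 0.80 ± 0.13 (adjusted p = 7.76e-06). COL5A3 went the other way: 0.115, 0 and 0.0886 CPM in DMSO, 0.0296, 0.0927 and 0.0357 at 8 h, 0.271, 0.123 and 0.0646 at 24 h, with 1.73, 1.52 and 1.60 in the combination. Only its combination libraries exceeded 1 CPM, and the rise was 4.40 ± 0.47 (adjusted p = 2.97e-08). COL5A3 reached the filter only through those libraries. COL11A2, a minor fibrillar chain of cartilage, was at 2.74, 1.62 and 2.22 CPM in DMSO, 2.01, 2.78 and 2.17 at 8 h, 4.12, 4.01 and 3.57 at 24 h, with 6.72, 6.41 and 6.24 in the combination. It rose by 1.54 ± 0.16 in the combination (adjusted p = 1.14e-08) with no overlap.

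Among the FACIT chains COL9A2 and COL12A1 were higher in the combination than in DMSO and COL14A1 was lower, while COL9A3, COL16A1 and COL21A1 gave no call. COL9A2, a chain of the type IX collagen that decorates cartilage fibrils, was at 18.1, 16.6 and 16.0 CPM in DMSO, 14.6, 11.8 and 12.7 at 8 h, 18.1, 18.5 and 21.7 at 24 h, with 42.4, 37.5 and 41.1 in the combination. The rise of 1.25 ± 0.08 (edgeR adjusted p = 6.99e-12) gave it the highest level per length of all collagen genes in the combination, 14.1 CPM per kb. COL12A1, which coats type I fibrils, was at 49.7, 56.9 and 55.2 CPM in DMSO, 61.8, 69.7 and 71.4 at 8 h, 39.9, 36.1 and 38.9 at 24 h, with 86.9, 98.3 and 90.6 in the combination. Its 4 groups did not overlap at any point, and the rise in the combination was 0.77 ± 0.06 (adjusted p = 5.13e-10). COL14A1, a close relative that also binds fibrils, was at 3.36, 3.62 and 2.60 CPM in DMSO, 1.36, 1.45 and 1.85 at 8 h, 1.47, 1.51 and 1.49 at 24 h, with 0.495, 0.291 and 0.490 in the combination. Every treated library was under every DMSO library, and the fall in the combination, by 2.89 ± 0.23 (adjusted p = 2.3e-10), was the only one of 2-fold or more among the tested collagen genes. COL16A1 was at 6.73, 6.34 and 7.27 CPM in DMSO, 6.25, 5.44 and 5.24 at 8 h, 6.46, 5.79 and 6.65 at 24 h, with 8.33, 7.71 and 7.78 in the combination. Its combination libraries lay above those of DMSO without passing the test (log2 fold change 0.23 ± 0.10, adjusted p = 0.0565). COL9A3 averaged 1.18 CPM in DMSO and 1.40 in the combination (0.24 ± 0.24), and COL21A1 0.549 and 0.512 (-0.09 ± 0.33).

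Both tested transmembrane chains rose in the combination. COL13A1, found at cell adhesions and the neuromuscular junction, was at 4.51, 4.69 and 4.43 CPM in DMSO, 4.24, 4.88 and 4.96 at 8 h, 4.15, 3.88 and 5.53 at 24 h, with 12.6, 12.6 and 14.6 in the combination. The docetaxel libraries overlapped DMSO and the combination libraries did not, with a rise of 1.54 ± 0.12 (edgeR adjusted p = 1.15e-10). COL23A1 was at 0.875, 0.476 and 0.709 CPM in DMSO, 0.355, 0.309 and 0.499 at 8 h, 0.210, 0.401 and 0.452 at 24 h, with 2.48, 2.95 and 2.81 in the combination, a rise of 1.96 ± 0.24 (adjusted p = 2.8e-07). Of the multiplexins, COL15A1 was at 0.184, 0.381 and 0.266 CPM in DMSO, 0.889, 1.02 and 0.820 at 8 h, 0.331, 0.616 and 0.409 at 24 h, with 1.15, 1.88 and 1.54 in the combination. It rose by 2.48 ± 0.32 (adjusted p = 5.07e-07), and its combination libraries lay above all others. COL18A1 was at 60.6, 63.3 and 62.1 CPM in DMSO, 72.3, 82.2 and 78.8 at 8 h, 50.5, 46.9 and 50.1 at 24 h, with 65.6, 59.6 and 71.8 in the combination, which overlapped DMSO (0.08 ± 0.06, adjusted p = 0.254). On the opposite strand, SLC19A1 shares 1401 exon bases with COL18A1, 16.4% of its exon bases, and the strand setting of the counts is not given in the sources used here. SLC19A1 averaged 59.5 CPM in DMSO, 69.2 at 8 h, 43.0 at 24 h and 27.4 in the combination, and its part in the COL18A1 counts was not tested.

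The anchoring fibril gene COL7A1 rose in the combination from 2.83, 1.49 and 2.48 to 3.99, 4.63 and 4.09 CPM (0.88 ± 0.22, edgeR adjusted p = 0.00113). COL26A1 did not pass, at 9.05, 9.80 and 9.40 CPM in DMSO, 7.88, 7.35 and 7.59 at 8 h, 7.25, 7.61 and 6.74 at 24 h, with 9.26, 9.17 and 8.04 in the combination (-0.09 ± 0.09, adjusted p = 0.394). COL28A1, an uncommon collagen with von Willebrand factor A domains, was at 0.276, 0.159 and 0.0591 CPM in DMSO, 0.148, 0 and 0.143 at 8 h, 0.511, 0.185 and 0.172 at 24 h, with 0.526, 0.874 and 0.654 in the combination. Its rise of 1.96 ± 0.52 (adjusted p = 0.00239) came with no overlap with DMSO. However, 1 docetaxel library, A at 24 h, was close to the lowest of the combination. COL28A1 reached the filter only through the combination libraries.

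Of the 14 genes without enough counts for the test, several had most of their counts in the combination. How many of all untested genes did so was not counted. COL11A1, a fibrillar chain, had 0, 1, 1 and 22 counts over the 3 libraries of DMSO, 8 h, 24 h and the combination, at least 8.51-fold higher in the combination than in DMSO. COL9A1 had 0, 0, 0 and 18 counts (at least 6.96-fold higher), COL25A1 0, 0, 0 and 15 (at least 5.80-fold) and COL22A1 0, 0, 0 and 14 (at least 5.41-fold). Of the 15 counts of COL25A1, 12 came from a single library. COL27A1, another fibrillar chain, had 1, 2, 7 and 20 counts, a ratio of 23.2 between combination and DMSO with a counting interval of 3.71 to 962. COL1A2 had 0, 2, 9 and 9 counts, COL3A1 2, 2, 9 and 7, and COL20A1 0, 2, 5 and 5. COL24A1, a fibrillar chain, was lowest in the combination, with 10, 10, 29 and 3 counts. The remaining genes, COL2A1 and COL19A1, had at most 5 counts in any library. Counted over all 43 genes, 6 of the 25 that averaged under 1 CPM in DMSO averaged 1 CPM or more in the combination, and none did so at 8 h or at 24 h of docetaxel. The share of all genes that did so was not counted, and COL5A3 and COL6A2, among the 6, passed the filter only through the combination. Of those 25 genes, 5 passed the filter without the combination libraries, and 4 of these 5 rose, beside 29.9% of all genes at such a level that passed in the same way.

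Summed over all members of a class, tested or not, the type IV level was 39.0 ± 1.58 CPM in DMSO (mean ± SD, n = 3), 24.8 ± 3.04 at 8 h of docetaxel, 26.6 ± 0.784 at 24 h and 83.3 ± 3.41 with the combination. The FACIT sum was 82.5 ± 2.75, 89.2 ± 3.57, 67.6 ± 3.27 and 143 ± 2.62 CPM in the same order. The fibrillar sum was 45.4 ± 1.68 in DMSO, 37.0 ± 2.77 at 8 h, 47.0 ± 1.83 at 24 h and 45.7 ± 1.77 under the combination. The short-chain sum went from 0.866 ± 0.228 in DMSO to 16.1 ± 0.403 in the combination and the transmembrane sum from 5.23 ± 0.136 to 16.2 ± 1.13. Over all 43 genes the sum was 247 ± 5.89 CPM in DMSO, 245 ± 13.6 at 8 h, 208 ± 5.76 at 24 h and 388 ± 10.8 in the combination. These sums are dominated by the few abundant genes of each class and carry no test.

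**Figure D4:**
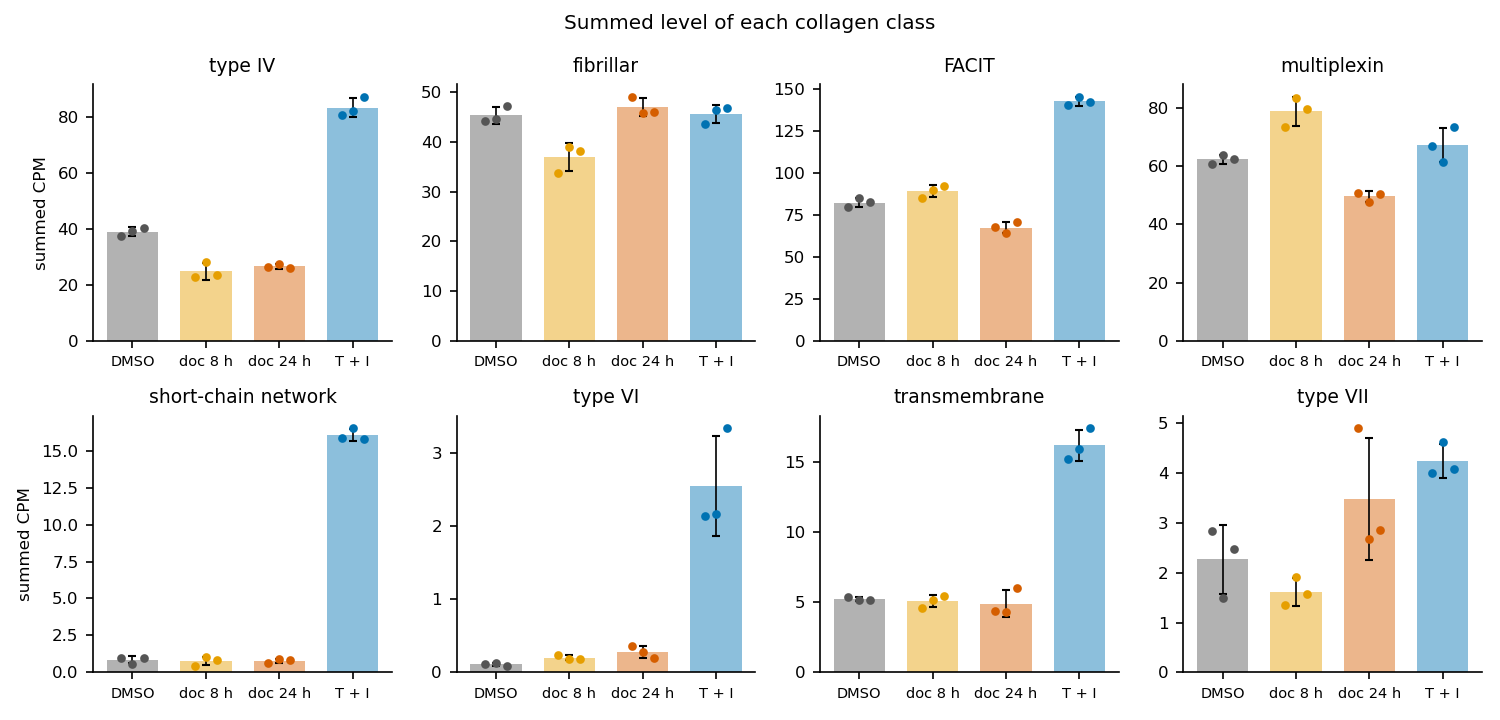
Summed CPM of 8 collagen classes in DMSO, docetaxel for 8 h and 24 h, and tazemetostat with ipatasertib (T + I), with bars for the mean of 3 libraries, error bars for the SD and points for libraries; each panel has its own axis from 0. The type IV bar of the combination reaches 83.3 CPM against 39.0 in DMSO, while the fibrillar bars of DMSO and the combination are level at 45.4 and 45.7.

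Markers of other cell types moved in part with the combination. Epithelial markers were all 7 expressed in each group, with a summed level of 10942 to 11150 CPM in DMSO, 13799 to 15352 at 8 h, 11408 to 11687 at 24 h and 8872 to 10029 in the combination. The 8 fibroblast markers summed to 9.29 to 11.5 CPM in DMSO, 11.1 to 12.2 at 8 h, 8.60 to 11.5 at 24 h and 17.4 to 18.9 in the combination. LUM and DCN had no count in the other groups and averaged 4.17 and 0.299 CPM in the combination, whereas THY1 was untested and under 0.4 CPM in every library, and FAP averaged 1.95 CPM in DMSO and 1.83 in the combination. Of the 8 fibroblast markers 5 were tested, and 2 rose and 0 fell in the combination, beside 31.4% of all tested genes each way. LUM, 1 of the 2, passed the filter only there, and the other passed without the combination libraries. The 5 endothelial markers summed to 21.8 to 24.4, 11.9 to 17.8, 13.9 to 15.5 and 39.0 to 40.3 CPM in the same order of groups, mostly KDR, while PECAM1 averaged 0.108 CPM in DMSO and 0.0955 in the combination. The 5 immune markers summed to 51.3 to 54.2, 23.6 to 25.1, 31.7 to 33.6 and 22.9 to 29.8 CPM, nearly all from CD14. The part of these markers in the collagen results was not tested.

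At 8 h of docetaxel more collagen genes were lower than higher, by small amounts. Against DMSO 4 of the 29 tested genes rose, beside 22.5% of all tested genes, and 10 fell, beside 24.8%; all 14 passed the filter without the combination libraries. The multiplexins rose, COL15A1 by 1.75 ± 0.34 (edgeR adjusted p = 0.000203) and COL18A1 by 0.33 ± 0.06 (adjusted p = 0.000136), as did COL12A1, by 0.33 ± 0.07 (adjusted p = 0.000232). COL15A1 was the only collagen gene at 8 h with a rise of 2-fold or more. COL14A1 fell by 1.04 ± 0.19 (adjusted p = 6.83e-05), COL4A5 by 0.82 ± 0.08 (adjusted p = 3.21e-08), COL1A1 by 0.77 ± 0.07 (adjusted p = 2.04e-08) and COL5A2 by 0.62 ± 0.12 (adjusted p = 0.000252). For these 7 genes the 3 libraries at 8 h did not overlap those of DMSO, which was not counted over all called genes. The calls of COL9A2 (-0.37 ± 0.09) and COL26A1 (-0.30 ± 0.09) were smaller.

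Several calls at 8 h hung on single libraries, the scaling, the test, the filter or the groups fitted. COL5A1 (0.22 ± 0.09) lost its call under scaling by library totals (0.0663, edgeR adjusted p = 0.587) and without DMSO A or B or docetaxel B or C (0.16 to 0.23), and COL16A1 (-0.26 ± 0.11) without any DMSO library or docetaxel B or C (-0.28 to -0.19). COL23A1 (-0.86 ± 0.33) lost it without DMSO A or C or docetaxel A or B (-0.83 to -0.61), COL9A3 (-0.72 ± 0.27) without the same libraries (-0.69 to -0.64), COL4A4 (-0.52 ± 0.19) without DMSO B or docetaxel A or C (-0.49 to -0.34), and COL26A1 without DMSO B (-0.25). COL16A1 also lost its call under DESeq2, with no filter on low counts and in a fit of the 2 groups alone (-0.27 to -0.25). COL4A4 lost its call in that last fit too (-0.51). Scaling by library totals in place of TMM factors moved the median log2 fold change of all tested genes from -0.02 to -0.18 and the collagen counts to 3 higher and 14 lower; over all genes it gave 2288 higher and 6784 lower, against 3994 and 4415.

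After 24 h of docetaxel 4 of the 6 type IV chains were lower and the direction of COL12A1 and COL18A1 had turned. Against DMSO 4 of the 29 rose (20.2% of all tested genes did) and 11 fell (22.7%), and among the 23 that passed the filter without the combination libraries 3 rose and 11 fell. In the type IV class none rose, and those that fell were COL4A4 by 0.84 ± 0.19 (edgeR adjusted p = 0.00122), COL4A5 by 0.58 ± 0.08 (adjusted p = 4.58e-06), COL4A1 by 0.49 ± 0.18 (adjusted p = 0.0333) and COL4A2 by 0.39 ± 0.12 (adjusted p = 0.00849). None of these 4 overlapped DMSO, which was not counted over all called genes. The call of COL4A1 was lost without DMSO B or C or docetaxel A or C (-0.48 to -0.43). COL4A3 (-0.29 ± 0.22) and COL4A6 (-0.44 ± 0.36) gave no call. COL12A1 fell by 0.49 ± 0.07 (adjusted p = 3.79e-06) and COL18A1 by 0.33 ± 0.06 (adjusted p = 0.000168), both of which had risen at 8 h. COL14A1 (-1.10 ± 0.18) and COL5A2 (-0.87 ± 0.12) fell further than any other called gene save COL23A1 (-0.94 ± 0.32), and COL26A1 (-0.39 ± 0.09) and COL1A1 (-0.30 ± 0.07) fell by less.

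The genes that rose at 24 h were COL5A1, COL11A2, COL7A1 and COL6A2. COL5A1 rose by 0.50 ± 0.09 (edgeR adjusted p = 6.64e-05) and COL11A2 by 0.80 ± 0.16 (adjusted p = 0.000325), with no overlap with DMSO for either. COL6A2 passed on 13 counts against 2, a ratio of 6.30 with a counting interval of 1.43 to 57.5. COL7A1, with 4.90, 2.68 and 2.86 CPM at 24 h, overlapped DMSO and rose by 0.59 ± 0.22 (adjusted p = 0.0328). Without docetaxel library A its log2 fold change was 0.27, and without DMSO B it was 0.38, both short of the threshold. The calls of COL6A2 and COL23A1 were also lost without single libraries: COL6A2 without DMSO A or C or docetaxel A or C (fitted 1.99 to 2.66) and COL23A1 without DMSO A or docetaxel A (-0.70 for both). Under DESeq2 the call of COL6A2 was lost as well (2.66).

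The docetaxel time points were compared directly, since each shares its DMSO libraries with the other. DMSO cancels out of this contrast, so time in culture and docetaxel cannot be told apart in it. From 8 h to 24 h 7 collagen genes rose (16.6% of all tested genes did) and 3 fell (18.3%). The fibrillar chains COL1A1 (0.47 ± 0.08, edgeR adjusted p = 3.81e-05), COL5A1 (0.28 ± 0.09, adjusted p = 0.0143) and COL11A2 (0.74 ± 0.16, adjusted p = 0.00108) were higher at 24 h. So were both tested chains of type IX, COL9A2 (0.58 ± 0.09) and COL9A3 (0.96 ± 0.27), together with COL7A1 (1.10 ± 0.23) and COL4A5 (0.24 ± 0.08). COL12A1 (-0.82 ± 0.07, adjusted p = 2.16e-09), COL18A1 (-0.66 ± 0.06, adjusted p = 2.38e-08) and COL15A1 (-1.02 ± 0.31, adjusted p = 0.0138) were lower. For all 10 the libraries of the time points did not overlap. That was not counted over all called genes and adds no support beyond the calls. Under library totals all tested genes had a median of 0.14 in place of 0.01, with 5392 higher and 1655 lower against 2947 and 3261, and the collagen counts were 8 and 3.

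Set against 24 h of docetaxel, the combination, sampled at the same hour but under other culture conditions, was higher for 22 of the 29 tested collagen genes (32.1% of all tested genes were) and lower for 2 (31.7%). Among the 23 that passed the filter without the combination libraries 16 were higher and 2 lower, beside 29.7% and 33.5% of such genes. All 6 type IV genes were higher, from 0.27 ± 0.08 for COL4A5 (edgeR adjusted p = 0.00606) to 3.81 ± 0.15 for COL4A1 (adjusted p = 5.38e-16), and COL8A1 was higher by 5.07 ± 0.21 (adjusted p = 2.64e-15). COL14A1 (-1.80 ± 0.25, adjusted p = 1.73e-06) and COL5A1 (-0.49 ± 0.09, adjusted p = 3.77e-05) were the genes that were lower. COL12A1 (1.26 ± 0.07), COL18A1 (0.42 ± 0.06) and COL16A1 (0.33 ± 0.10) were higher here. COL7A1 gave no call (0.29 ± 0.21), but passed without docetaxel library A (0.60, adjusted p = 0.0116). COL1A1 did not differ beyond the spread (0.04 ± 0.07, adjusted p = 0.626).

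Genes that make, cut, crosslink and bind collagen were followed beside the chains. All 20 genes of prolyl and lysyl modification and folding were tested: 8 rose and 4 fell at 8 h, 2 rose and 4 fell at 24 h, and 7 rose and 9 fell in the combination. P3H3 and FKBP10, which reached the filter only through the combination, are 2 of the 7. For these and the counts that follow, the shares of all tested genes that rose and fell were 22.5% and 24.8% at 8 h, 20.2% and 22.7% at 24 h, and 31.4% each way under the combination. In the combination the collagen galactosyltransferase COLGALT1 fell from a mean of 249 to 161 CPM, by 0.63 ± 0.05 (edgeR adjusted p = 8.99e-11), and the lysyl hydroxylases PLOD1 (by 0.60 ± 0.05) and PLOD2 (by 0.53 ± 0.05) fell as well. The prolyl hydroxylase subunits split, P4HA1 falling by 0.60 ± 0.08 and P4HA2 rising by 0.37 ± 0.07, and the prolyl 3-hydroxylase P3H2, which acts on type IV collagen, rose by 0.73 ± 0.06 (adjusted p = 1.43e-10). SERPINH1, the collagen chaperone HSP47, rose by 0.19 ± 0.05 in the combination and by 0.15 ± 0.05 at 24 h.

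Of 14 genes of propeptide cleavage and crosslinking 10 were tested, with 1 rise and 3 falls at 8 h, 0 and 3 at 24 h, then 5 and 2 in the combination. Among the 5 was ADAMTS14, tested only because of the combination libraries. BMP1, which cuts the ends off procollagen, averaged 40.2 CPM in DMSO, 38.6 at 8 h, 36.3 at 24 h and 63.3 in the combination, where it rose by 0.65 ± 0.06 (edgeR adjusted p = 7.88e-10). PXDN, the peroxidasin that crosslinks type IV collagen, was lower than DMSO in all 3 treatments, by 0.41 ± 0.06, 0.69 ± 0.06 and 0.30 ± 0.06 on the log2 scale at 8 h, 24 h and in the combination. LOXL1 rose by 1.73 ± 0.24 in the combination. LOX fell by 0.53 ± 0.08 at 8 h, where LOXL2 rose by 0.43 ± 0.06, and neither gave a call at 24 h or in the combination.

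Of 10 receptor genes 7 were tested, with 0 rises and 4 falls at 8 h, 1 and 3 at 24 h, then 4 and 2 in the combination. ITGA1, the one rise at 24 h and among the 4 of the combination, passed the filter only through the combination. The collagen-binding integrin subunits ITGA2 and ITGA10 rose in the combination, ITGA2 from 12.6, 14.7 and 14.2 CPM to 56.5, 66.8 and 61.6 (2.16 ± 0.09, edgeR adjusted p = 2.66e-15) and ITGA10 from 0.633 to 4.89 CPM on average (2.92 ± 0.21). DDR1, the collagen receptor kinase, fell by 0.26 ± 0.05 at 8 h and 0.45 ± 0.05 at 24 h and rose by 0.17 ± 0.05 in the combination. Of 10 partners in basement membranes 8 were tested, with 1 rise and 6 falls at each docetaxel time and 5 rises and 2 falls in the combination. HSPG2, the proteoglycan perlecan, fell by 0.91 ± 0.10 at 8 h and by 1.06 ± 0.10 at 24 h and rose by 0.35 ± 0.09 in the combination. The laminin chains LAMB2 (0.60 ± 0.05) and LAMB1 (0.52 ± 0.05) rose in the combination.

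Of 12 partners of fibrils 7 were tested, with 0 rises and 4 falls at each docetaxel time and 5 rises and 2 falls in the combination, 1 of the rises being LUM, which passed the filter only there. FN1, fibronectin, averaged 35.3 CPM in DMSO, 23.4 at 8 h, 25.2 at 24 h and 108 in the combination, where it rose by 1.61 ± 0.07 (edgeR adjusted p = 1.38e-14). LUM, the fibril-spacing proteoglycan lumican, had no count in the 9 other libraries and 4.61, 4.15 and 3.76 CPM in the combination. TNC, tenascin C, fell in all 3 treatments, by 0.66 ± 0.06, 0.64 ± 0.06 and 0.57 ± 0.06 on the log2 scale. LUM and DCN also stand among the fibroblast markers.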

How the data were processed

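For every library the authors deposited a file of whole-number read counts by gene symbol. The submitters' processing notes name fastp, HISAT2 2.0.5, DESeq2 and hg38 without their roles; which counter, annotation or strand option was used is not given in the sources used here. An additional table of the whole series was left out. edgeR 4.0.16 (R 4.3.3) took the 12 libraries in a single fit of 4 group means, scaled by TMM (factors of 0.917 to 1.05), which left 8 residual degrees of freedom. Genes passed filterByExpr at a minimum count of 10. The quasi-likelihood test was two-sided over 5 comparisons, which share control libraries, with a Benjamini-Hochberg adjusted p under 0.05. The test was checked on simulated data. The spread between replicates, pooled over all genes and groups, was a coefficient of variation of 5.59%. Counts of replicate pairs were also compared by chi-squared per degree of freedom. It was 3.25 to 3.94 in DMSO and 4.37 to 14.1 at 8 h. At 24 h it was 8.29 to 16.3, and in the combination 6.24 to 9.32. The treated groups thus scattered more than DMSO, while the test used a spread shared by the groups. Positions and transcript lengths (the transcript with the longest coding sequence) came from GENCODE release 29. Library values are given for tested members among the 10 highest by mean CPM, or called against DMSO with a log2 fold change of at least 1 in size. From each related list up to 3 genes with the lowest adjusted p were named, besides 8 set by name. The members and lists were chosen with earlier results of these data known. Intervals and the floor of 3 counts cover counting error only, since PCR copies were not marked. Alternatives were library totals, DESeq2 1.42.0, other filters, a replicate block, fits to the groups compared alone and leaving out each library.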

Additional observations from a re-analysis of the deposited data

Results flagged for a closer look

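In 10 collagen genes the level differed between the docetaxel time points, by the edgeR quasi-likelihood test of 24 h against 8 h. No DMSO library is labelled with a time, so time in culture and docetaxel cannot be told apart here. The difference between the time points is what drew attention to these genes. Such calls were common over all tested genes: 16.6% were higher at 24 h and 18.3% lower, beside 7 and 3 of the 29 tested collagen genes. COL12A1 rose by 0.33 at 8 h and fell by 0.49 at 24 h on the log2 scale, a difference of -0.82 ± 0.07 (SE, n = 3 against 3, adjusted p = 2.16e-09). COL18A1 did likewise, with 0.33 and -0.33 (difference -0.66, adjusted p = 2.38e-08). COL15A1 rose at 8 h by 1.75 and gave no call at 24 h with 0.73 (difference -1.02, adjusted p = 0.0138). COL9A3 and COL9A2, chains of type IX collagen, were under DMSO at 8 h and not at 24 h, with differences of 0.96 (adjusted p = 0.00702) and 0.58 (adjusted p = 1.81e-05). COL1A1 fell at both times, by less at 24 h (difference 0.47, adjusted p = 3.81e-05), and so did COL4A5 (difference 0.24, adjusted p = 0.0301). COL5A1 rose at both times and more at 24 h (difference 0.28, adjusted p = 0.0143). COL11A2 (difference 0.74, adjusted p = 0.00108) and COL7A1 (difference 1.10, adjusted p = 0.000747) gave a call against DMSO at 24 h and none at 8 h. Under some alternatives COL7A1 was called lower at 8 h, and its call at 24 h was lost without DMSO B or docetaxel A.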

How the results depend on the processing

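Of the 87 collagen fold changes against DMSO, 52 were called and 11 uncalled ones, of genes under the filter level in both groups, were not followed. Of the calls, 42 held under every alternative that tested the gene, among them all 23 of the combination. The 10 calls lost under at least 1 alternative were those of COL4A4, COL5A1, COL9A3, COL16A1, COL23A1 and COL26A1 at 8 h and of COL4A1, COL6A2, COL7A1 and COL23A1 at 24 h. No called fold change reversed. Of 904 values under alternatives, 17 turned an uncalled fold change into a call of the same direction. These were COL4A1, COL4A2 and COL7A1 lower at 8 h, COL9A2 higher at 24 h, and COL16A1 and COL18A1 higher in the combination. At 8 h COL6A2 and COL8A2, which were not followed, also passed under some alternatives. Without a filter on low counts 4 collagen genes in place of 2 were lower in the combination than at 24 h of docetaxel, because COL10A1 and COL24A1 were then tested, and COL11A1, COL1A2, COL22A1, COL25A1, COL27A1 and COL9A1 were then higher in the combination than in DMSO. The other counts stayed within 1.5 times.

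The log2 fold changes that changed sign were all uncalled. With library totals COL13A1 was at -0.11 at 8 h and -0.0146 at 24 h, COL11A2 at -0.0917 at 8 h and COL5A1 at -0.0248 in the combination. With no filter COL13A1 was at -0.0039 at 24 h and COL5A1 at -0.0268 in the combination. Leaving out a library gave -0.78 to 0.0762 for COL8A1, -0.0915 to 0.29 for COL11A2 and -0.36 to 0.0026 for COL4A3 at 8 h. It gave -0.18 to 0.11 for COL13A1 at 24 h, and -0.0494 to 0.0831 for COL5A1 and -0.21 to 0.13 for COL21A1 in the combination. The cause was not tested.

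Same-letter libraries did not deviate together (correlations of -0.13 to 0.14 over 18 pairs, 1 of them over 0.1). With 3 libraries a group this cannot show whether the letters pair libraries. With a replicate block the counts were 4 higher and 11 lower at 8 h, 5 higher and 11 lower at 24 h and 19 higher and 4 lower in the combination. COL13A1 at 24 h was at -0.0079. Depth limits the 14 untested genes, which held at most 17 counts in a library, and the 25 under 1 CPM in DMSO.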
